A study of Mus musculus with 6 samples.

Results

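The 44 genes described here encode the proximal machinery of the T cell receptor: its CD3 and zeta chains and coreceptors, the kinases they recruit, the adaptors and enzymes that relay the signal, the negative regulators that damp it, and 3 NFAT transcription factors. They are a list of gene symbols grouped by role. All 44 were found among the 32801 gene symbols of the table, and all 44 passed the filter on low values that left 16442 genes for testing. RNA was sequenced from regulatory T cells (Treg) isolated by sorting from thymi of 3-week-old mice as GFP-negative, CD4+CD8- and Thy1.1+ cells. There were 3 libraries from NOD mice, an inbred strain that develops autoimmune diabetes, and 3 from C57BL/6 (B6) mice, and the labels record no treatment. The labels used here do not say what GFP and Thy1.1 mark, the sex of the mice, or whether a library came from 1 animal or a pool. The p-values therefore set the strain difference against the spread between these libraries, which may be technical. In the limma fit used here, the spread of each gene is also drawn toward a trend over all tested genes. The series concerns how Treg form in the young NOD thymus and how cells that return to it affect this, and the only comparison in its design is NOD against B6.

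When a T cell receptor binds its ligand, the kinase LCK, brought in by CD4, phosphorylates tyrosines in the CD3 and zeta tails, and ZAP70 docks there. ZAP70 then phosphorylates the scaffold LAT and the adaptor SLP-76 (gene Lcp2), on which PLC-gamma1, VAV1 and TEC-family kinases assemble, and calcium, RAS and protein kinase C theta carry the signal to NFAT, ERK and NF-kB. Phosphatases, the kinase CSK, ubiquitin ligases of the CBL family, diacylglycerol kinases and the UBASH3 proteins oppose these steps. The strength of this signal during selection in the thymus is known to influence which thymocytes become Treg.

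Values are normalized counts, that is, whole numbers left after each library's read counts were scaled by its size factor. They sum to between 16097369 and 17625903 per library, and depth estimated from the rounding lay between about 15500000 and 21600000 reads. Values per library are given in the order NOD library 2, 10 and 18 and B6 library 4, 12 and 20, which are the numbers in the column names. Foxp3, which defines Treg, lay between 1701 and 2446 normalized counts in all 6 libraries, and of 6 Treg identity genes only Il2rb was called, lower in NOD. Summed CD8 and immature thymocyte markers (6 genes) reached 238 to 320 normalized counts in NOD and 250 to 304 in B6, with Cd8a called higher and Rag1 lower. The B cell markers (6 genes) summed to 151 to 210 and 176 to 224, with 3 of the 6 under the filter. Myeloid and dendritic markers (9 genes) summed to 1126 to 1353 in NOD and 1394 to 1661 in B6, and 2 of them, Cd74 and H2-Aa, were called lower. Of the 5 tested, 4 had a negative log2 fold change and 1 a positive one. The positive one was Cst3, not called, at 705, 982 and 606 in NOD and 529, 522 and 585 in B6, a large part of the sum. NK and gamma-delta markers (6 genes) summed to 68 to 155 and 56 to 75, with Sox13 called higher. Sox13 stood at only 13, 18 and 21 in NOD and 0, 0 and 5 in B6, so it passed the filter through the NOD libraries alone. Epithelial and erythroid markers (6 genes) summed to 168 to 245 and 244 to 314, with 0 called. No gene of these lists was at 0 in all 6 libraries, and their part in the results was not tested. In bulk RNA such as this, fewer cells of a type and less RNA per cell cannot be told apart. Principal component 1 carried 60.8% of the variance and parted the strains. Component 2 carried 15.5% and set B6 library 20 (41.7) against NOD library 10 (-32.0) and B6 library 12 (-29.4), so values that turn on a single library are given with and without it.

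Of the 44 genes, 7 were higher and 3 lower in NOD at a limma adjusted p below 0.05, adjusted over all tested genes. That is 15.9% and 6.82% of the genes, where 4.59% and 5.30% of all tested genes were called higher and lower. The lower share rests on 3 genes and lies near that of all tested genes. The 44 genes were chosen with earlier results of these data known, so these shares describe the list and do not test it. Per kilobase of exon, all 44 also stood at the 45.7th percentile of tested genes or above. In the group of receptor chains and coreceptors, Cd3e, a receptor chain gene, and Thy1, a surface protein gene, rose. The others that rose were Txk, Lck and Prkcq among the kinases, and Malt1 and Grap2 among the adaptors and transducers. The genes that fell were all negative regulators, Ubash3b, Ubash3a and Ptpn22. In the reported fit, none of the 13 negative regulators was called higher. None of the 28 receptor, kinase and adaptor genes was called lower. At the shares of all tested genes, few such calls would arise in groups this small. Their absence therefore does not test a split by role. Dgka, a negative regulator, was called higher in the authors' deposited table (log2 fold change 0.26, adjusted p = 0.0036). Sla2, another, was called higher in a fit with a B6 library left out, given below. The NOD libraries all lay above the B6 libraries for 15 genes (34.1%) and all below for 4 (9.09%), where 12.1% and 11.9% of all tested genes did so. The median log2 fold change over the 44 genes was 0.07, against 0.01 over all tested genes. Fold changes are NOD minus B6 on the log2(value + 1) scale, which understates differences of low values.

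**Figure D1:**
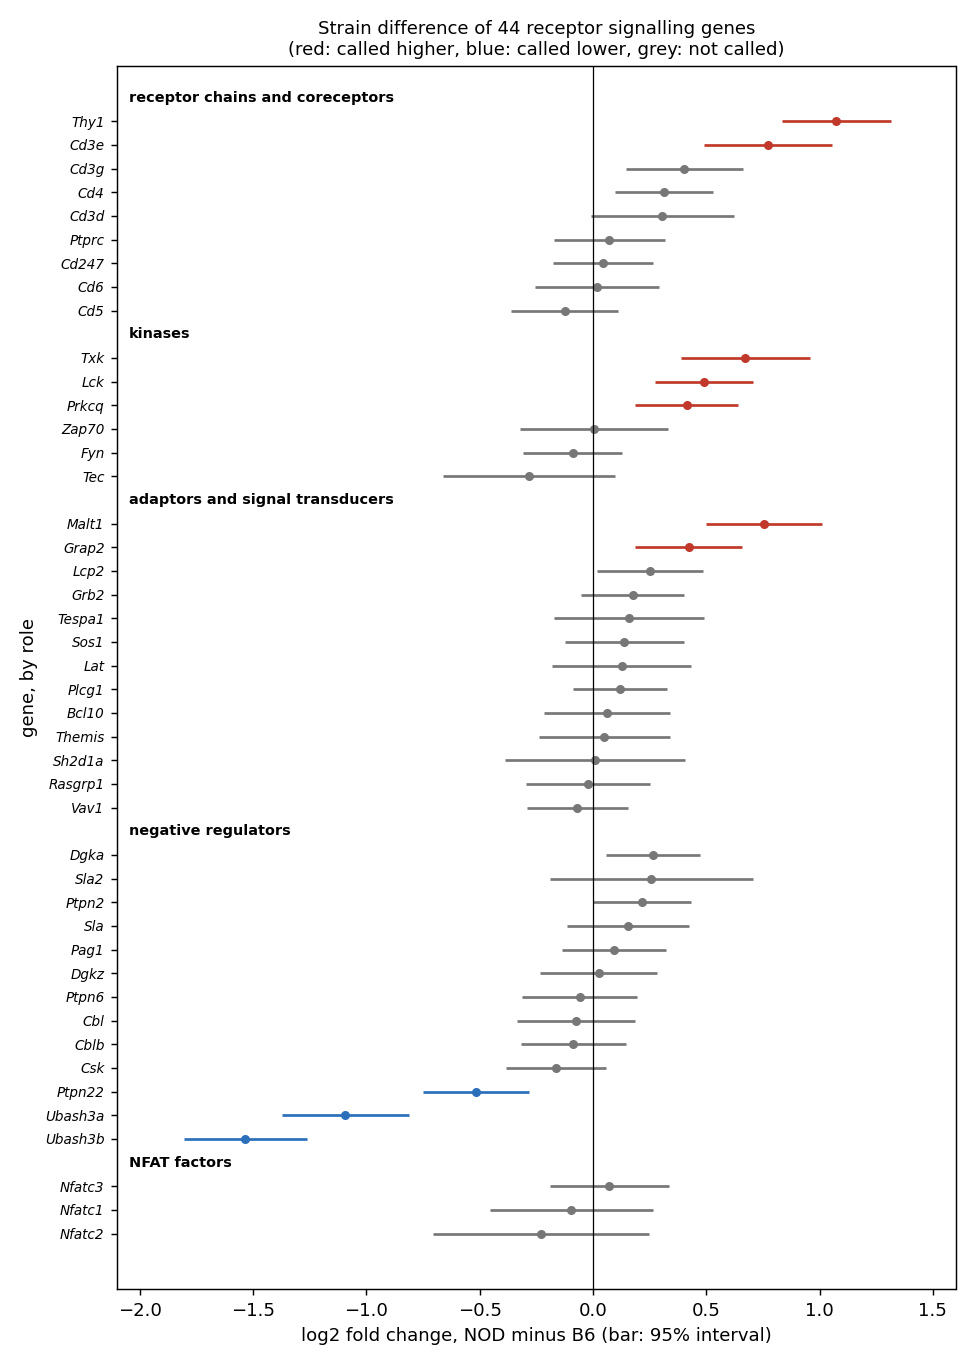
Log2 fold change, NOD minus B6, of the 44 genes (points) with limma's 95% interval (bars, n = 3 libraries per strain), ordered within each role. Red marks the 7 genes called higher and blue the 3 called lower, and the 3 blue genes all stand among the negative regulators.

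The receptor chains and coreceptors held 2 called genes of 9, both higher, and a median log2 fold change of 0.30. Cd3e encodes CD3 epsilon, an invariant chain present in every receptor complex. It stood at 2118, 1598 and 2031 normalized counts in NOD and at 1088, 1051 and 1207 in B6. NOD library 10 was the lowest of its strain and still lay above every B6 library. The log2 fold change was 0.77 ± 0.13 (SE, limma adjusted p = 0.0022), or 1.71-fold. Cd3g, the gamma chain, stood at 6793, 6571 and 6178 against 4252, 4979 and 5635, also without overlap. Its log2 fold change of 0.40 ± 0.12 missed the threshold (adjusted p = 0.055). Cd3d, the delta chain, stood at 4939, 4248 and 4889 against 3393, 3337 and 4804. B6 library 20 overlapped the NOD libraries here, and the difference was 0.30 ± 0.14 (adjusted p = 0.27). Without that library both genes passed, Cd3d at 0.48 (adjusted p = 0.027) and Cd3g at 0.50 (adjusted p = 0.024), and Cd3e stood at 0.83 (adjusted p = 0.0057). Cd247, which encodes the zeta chain with most of the complex's signalling tyrosines, gave 3300, 3519 and 3015 against 3184, 3222 and 3114. The strains overlapped, and the 95% interval of its log2 fold change reached from -0.17 to 0.26.

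The 3 CD3 genes are neighbours on chromosome 9 and Cd247 lies on chromosome 1 (mm10 coordinates, GENCODE M21). Cd3g occupies 44969572 to 44980431 on the minus strand and Cd3d 44981786 to 44987339 on the plus strand, so that their starts face away from each other 1.36 kb apart. Cd3e occupies 44998740 to 45009627 on the minus strand, and its start is 27.8 kb from that of Cd3d. Thy1 (44043384 to 44048579) lies 966 kb from Cd3e. Within 1 Mb of the start of Cd3e, 63 other genes were tested, of which 8 (12.7%) were called higher and 0 lower. They were Thy1, Ift46, Jaml, Mpzl2, Mpzl3, Gm39323 and the overlapping genes Gm48719 and Gm48720, named because they surround the gene and after their values were seen. Over chromosome 9 as a whole, 9.71% of 927 tested genes were called in either direction. Among all tested genes, 4.59% were called higher and 5.30% lower.

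Thy1 encodes a small glycolipid-anchored surface protein of T cells. It stood at 6419, 5236 and 5608 normalized counts in NOD and at 2907, 2618 and 2649 in B6. The groups were far apart, and the log2 fold change was 1.07 ± 0.11 (SE, limma adjusted p = 6.2e-05). The cells were sorted on Thy1.1, an allelic form of this protein, and a difference in the gene and one in the sort marker cannot be told apart. Cd4, whose protein carries LCK to the receptor, stood at 7952, 7248 and 7846 against 6334, 5825 and 6407. The strains did not overlap, but the log2 fold change of 0.31 ± 0.10 did not pass (adjusted p = 0.077). It passed without NOD library 10, at 0.35 (adjusted p = 0.048). Ptprc, which encodes the phosphatase CD45, gave 47042, 46072 and 48120 against 45991, 42830 and 45527, a difference of 0.07 (95% interval -0.17 to 0.32). Cd5 (-0.13 ± 0.11) and Cd6 (0.02 ± 0.12), scavenger-receptor proteins that tune the signal, overlapped between the strains.

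**Figure D2:**
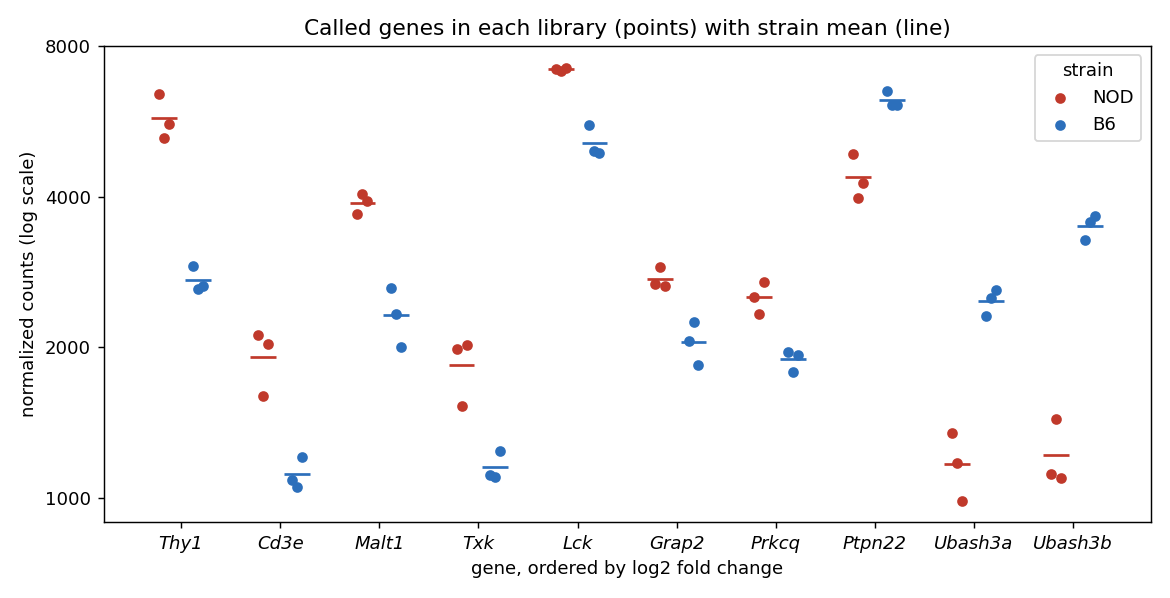
Normalized counts (log axis) of the 10 called genes in the 3 NOD (red) and 3 B6 (blue) libraries, with a line at each strain's mean, ordered by log2 fold change. In none of the 10 do the strains overlap, from Thy1 (5236 to 6419 in NOD, 2618 to 2907 in B6) to Ubash3b (1096 to 1436 in NOD, 3280 to 3664 in B6). The genes were called from these same values, so the lack of overlap largely restates the calls.

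Among the 6 kinases, Lck, Txk and Prkcq rose, 0 fell, and Fyn, Zap70 and Tec were not called. Lck encodes the Src-family kinase that starts the signal, and lies on chromosome 4 (129548344 to 129573641, minus strand, mm10). It stood at 7210, 7138 and 7257 normalized counts in NOD, close to each other, and at 5583, 4931 and 4901 in B6. The log2 fold change was 0.49 ± 0.10 (SE, limma adjusted p = 0.0076). Fyn, the other Src-family kinase of T cells, stood at 4866, 4585 and 4496 against 5373, 4691 and 4800, a difference of -0.09 (95% interval -0.31 to 0.13). The ratio of Lck to Fyn counts within a library, which no scaling factor moves, was 1.55 ± 0.066 (SD, n = 3) in NOD and 1.04 ± 0.015 in B6. Txk, a kinase of the TEC family, stood at 1984, 1528 and 2027 against 1112, 1099 and 1241 (0.67 ± 0.13, adjusted p = 0.0058). Tec, its relative, stood at 195, 178 and 186 against 187, 251 and 249, a difference of -0.28 (95% interval -0.66 to 0.10). Prkcq, which encodes protein kinase C theta, stood at 2527, 2338 and 2708 against 1961, 1785 and 1936 (0.41 ± 0.10, adjusted p = 0.026). Prkcq was not called when NOD library 2 (adjusted p = 0.095) or 18 (0.14), or B6 library 4 (0.074) or 12 (0.11), was left out. Without a variance trend in the limma fit none of the 6 kinases was called, with adjusted p = 0.068 for Lck, 0.061 for Txk and 0.13 for Prkcq. Zap70, which binds the phosphorylated zeta chain, stood at 2015, 2920 and 2139 against 2613, 2313 and 2057. NOD library 10 was the highest of all and the strains overlapped, with a difference of 0.01 (95% interval -0.32 to 0.33).

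The adaptors and signal transducers held 2 called genes of 13, both higher. Malt1, a paracaspase that works with BCL10 between protein kinase C theta and NF-kB, stood at 3694, 4051 and 3923 normalized counts in NOD and 2627, 2329 and 2002 in B6. The groups were far apart, and the log2 difference was 0.75 ± 0.12 (SE, limma adjusted p = 0.0014). Its partner Bcl10 stood at 1779, 2412 and 1864 against 1971, 1934 and 1848, which overlapped (0.06, 95% interval -0.22 to 0.34). Grap2 encodes GADS, the adaptor that links SLP-76 to LAT. It stood at 2681, 2892 and 2651 against 2057, 2250 and 1847, a log2 fold change of 0.42 ± 0.11 (adjusted p = 0.029). The strains did not overlap, yet Grap2 was not called when NOD library 2 (adjusted p = 0.083), 10 (0.056) or 18 (0.084), or B6 library 4 (0.0997) or 20 (0.079), was left out. Lcp2, which encodes SLP-76, stood at 2619, 2799 and 2537 against 2230, 2445 and 2019, without overlap, and was not called (0.25 ± 0.11, adjusted p = 0.21).

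The other 10 adaptors and transducers had log2 fold changes between -0.07 and 0.18 and were not called. Lat, the membrane scaffold, stood at 1914, 2700 and 2043 against 2058, 2183 and 1804, with NOD library 10 highest as for Zap70 and Bcl10. Plcg1, the phospholipase that makes the second messengers, lay above the B6 range in all 3 NOD libraries (6114, 6414 and 6313 against 5949, 5484 and 5900). Its difference was 0.12 (95% interval -0.09 to 0.33). Grb2, the adaptor that brings SOS1 to RAS, was also apart, at 2958, 3190 and 3019 against 2939, 2473 and 2721 (0.18 ± 0.10, adjusted p = 0.41). Sos1, its exchange factor (0.14 ± 0.12), and Rasgrp1, the exchange factor that diacylglycerol activates (-0.02 ± 0.12), overlapped between the strains. So did Vav1, an exchange factor for RAC (-0.07 ± 0.10), Themis (0.05 ± 0.13) and Tespa1 (0.16 ± 0.15), regulators of the signal in thymocytes, and Sh2d1a, the adaptor SAP (0.01 ± 0.18). The 3 NFAT genes were not called either, Nfatc1 at -0.10 ± 0.16, Nfatc2 at -0.23 ± 0.22 and Nfatc3 at 0.07 ± 0.12. Nfatc2 was the least certain of the 44, since B6 library 12 stood at 1030 normalized counts and the other 5 libraries between 523 and 684.

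The negative regulators held 3 called genes of 13, all lower in NOD. Ubash3b encodes UBASH3B, also named STS-1, a phosphatase that acts on ZAP70, and lies on chromosome 9 (41011098 to 41161697, minus strand, mm10). It stood at 1116, 1436 and 1096 normalized counts in NOD and at 3280, 3563 and 3664 in B6. The lowest B6 library lay far above the highest NOD library, and the log2 fold change was -1.54 ± 0.12 (SE, limma adjusted p = 1.1e-05), which is 2.90-fold lower. Ubash3a, its paralog named STS-2, lies on chromosome 17 (31207873 to 31246892, plus strand). It stood at 1347, 1175 and 988 against 2315, 2515 and 2609, a log2 fold change of -1.09 ± 0.13 (adjusted p = 0.00017), or 2.13-fold lower. Both members of this family were thus lower in NOD, and neither call was lost in any of the 13 other fits. All 13 reuse the same counts of reads aligned to mm10, which is B6 sequence. How well NOD reads aligned was not tested, for these or any other genes. Ptpn22 encodes the phosphatase PEP, which acts on LCK and ZAP70 (chromosome 3, 103859795 to 103912247, plus strand). It stood at 4872, 3986 and 4273 against 6512, 6120 and 6101 and fell by 0.52 on the log2 scale (SE 0.11, adjusted p = 0.0085), a call lost without a variance trend (adjusted p = 0.077).

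The other 10 negative regulators were not called. Csk, the kinase that inactivates LCK, stood at 2196, 2160 and 2006 normalized counts in NOD and 2413, 2227 and 2494 in B6. The groups were just apart, at NOD library 2 and B6 library 12, and the log2 fold change was -0.16 ± 0.10 (limma adjusted p = 0.43). Dgka, a diacylglycerol kinase, went the other way, at 8963, 9435 and 8816 against 7598, 7379 and 7676. Its groups did not overlap, but the difference of 0.26 ± 0.09 was not called (adjusted p = 0.12). Dgkz, the second such kinase, differed by 0.02 ± 0.12. The ubiquitin ligase genes Cbl (-0.07 ± 0.12) and Cblb (-0.09 ± 0.11), the CSK anchor Pag1 (0.09 ± 0.10) and the phosphatase gene Ptpn6 (-0.06 ± 0.11) lay near 0. Ptpn2, another phosphatase gene, stood at 1909, 2010 and 1953 against 1601, 1704 and 1748. As for Dgka, all NOD libraries lay above all B6 libraries, and it was not called (0.22 ± 0.10, adjusted p = 0.24). Sla, a SRC-like adaptor that lowers receptor levels, was among the most abundant, at 18867, 18837 and 20149 against 15704, 16184 and 20389, and the strains overlapped. Its relative Sla2 stood at 591, 636 and 710 against 418, 478 and 781. The difference in Sla2 was 0.26 ± 0.20 (adjusted p = 0.57), and among leave-one-out fits it passed only without B6 library 20, at 0.53 (adjusted p = 0.048).

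Ratios between 2 genes within a library set an activator beside its opponent, or a gene beside its partner or relative. They are given as a description with no test. Every pair holds a called gene, in which the strains did not overlap by itself, so the ratios largely restate those calls. Lck over Ptpn22 was 1.66 ± 0.16 (SD, n = 3) in NOD and 0.822 ± 0.031 in B6. Lck over Csk was 3.40 ± 0.19 against 2.16 ± 0.18. Both ratios were higher in every NOD library than in any B6 library. Zap70 over Ubash3b was 1.93 ± 0.12 against 0.669 ± 0.119, although the strains overlapped for Zap70 itself. Zap70 over Ubash3a was 2.05 ± 0.50 against 0.946 ± 0.172, with NOD library 10 highest at 2.49. Malt1 over Bcl10 was 1.95 ± 0.24 against 1.21 ± 0.125, and Cd3e over Cd247 was 0.590 ± 0.119 against 0.352 ± 0.032. Cd3e over Cd3d was 0.407 ± 0.027 against 0.296 ± 0.039, Txk over Tec 9.89 ± 1.18 against 5.10 ± 0.79, and Grap2 over Lcp2 1.03 ± 0.011 against 0.919 ± 0.0039. These pairs did not overlap between the strains. Cd3e over Cd3g did, at 0.243 to 0.329 in NOD and 0.211 to 0.256 in B6.

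**Figure D3:**
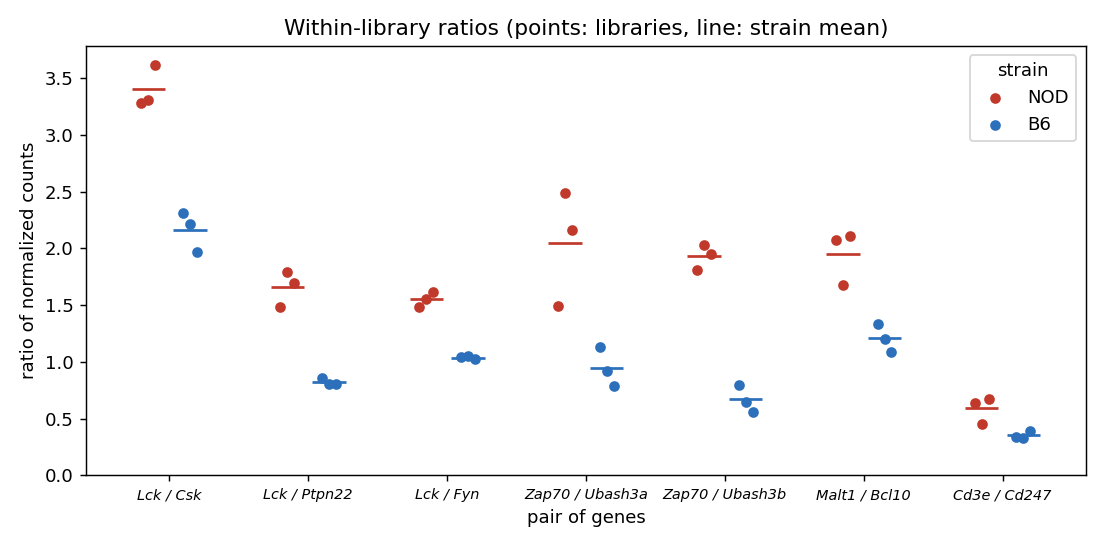
Ratio of normalized counts of 2 genes within each library (points), with strain means (lines), for NOD (red) and B6 (blue). Each of the 7 pairs drawn, of 11 computed, holds a called gene and parts the strains. An example is Zap70 over Ubash3b, at 1.81 to 2.03 in NOD and 0.561 to 0.797 in B6.

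The bases before the starts of 5 called genes are shown as the reference sequence upstream of 3 genes that rose (Cd3e, Lck, Txk) and 2 that fell (Ptpn22, Ubash3b). They come from the RefSeq table for GRCm38.p6, the assembly that mm10 names, and are B6 sequence. Each window holds the 200 bases before the start nearest to the GENCODE gene's own, 5′ to 3′ on the gene's strand. Capitals mark matches on either strand to any of 7 short motifs, and overlapping matches run together. The motifs were the ETS core AGGAAG (in 24.7% of 32851 such windows in the table), the RUNX core TGTGGT (11.2%) and the NFAT core TGGAAA (14.7%). Also searched were the E-box CAGNTG (37.9%), the AP-1 site TGANTCA (5.48%), the TATA box TATAAA (9.96%) and the cyclic AMP response element TGACGTCA (1.47%). The windows are chr9:45009612-45009811 for Cd3e (minus strand), chr4:129573642-129573841 for Lck (minus strand, the outer of 2 starts in the table), chr5:72752778-72752977 for Txk (minus strand), chr3:103859595-103859794 for Ptpn22 (plus strand) and chr9:41158063-41158262 for Ubash3b (minus strand, a start 3635 bases inside the GENCODE gene).
Cd3e: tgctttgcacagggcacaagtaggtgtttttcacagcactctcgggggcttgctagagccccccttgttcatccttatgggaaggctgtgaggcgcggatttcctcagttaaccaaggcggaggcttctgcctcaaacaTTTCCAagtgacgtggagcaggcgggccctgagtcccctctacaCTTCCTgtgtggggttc
Lck: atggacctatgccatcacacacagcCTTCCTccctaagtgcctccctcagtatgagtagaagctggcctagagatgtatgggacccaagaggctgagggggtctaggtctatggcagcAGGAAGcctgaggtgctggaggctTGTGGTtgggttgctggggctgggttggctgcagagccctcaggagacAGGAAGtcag
Txk: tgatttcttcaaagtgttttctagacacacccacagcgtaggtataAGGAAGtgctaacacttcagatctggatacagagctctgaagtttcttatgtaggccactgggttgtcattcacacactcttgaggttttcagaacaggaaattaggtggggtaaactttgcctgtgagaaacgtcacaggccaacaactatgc
Ptpn22: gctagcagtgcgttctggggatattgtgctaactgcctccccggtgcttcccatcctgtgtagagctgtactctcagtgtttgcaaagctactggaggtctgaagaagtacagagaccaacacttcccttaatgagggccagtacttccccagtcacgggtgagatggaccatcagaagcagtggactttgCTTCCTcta
Ubash3b: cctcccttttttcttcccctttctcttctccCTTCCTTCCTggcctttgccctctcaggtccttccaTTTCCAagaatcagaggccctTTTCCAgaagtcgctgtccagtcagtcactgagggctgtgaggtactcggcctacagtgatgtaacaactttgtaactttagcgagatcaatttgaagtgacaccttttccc

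The window of Grap2 was searched too, and it is not printed because its RefSeq start lies 50889 bases from the GENCODE start. The windows of Prkcq and Ubash3a lie in annotated exons and were not searched, and Thy1 and Malt1 have no entry in the table. Of the 6 windows searched, 5 held the ETS core, and Grap2 did not. Lck held it 3 times, at 175, 82 and 10 bases before the start, and was the only one of the 6 with the RUNX core. Ubash3b held the ETS core at 169 and 165 bases, where the matches overlap, and the NFAT core at 133 and 112. Cd3e held 1 of each, the ETS core at 17 bases and the NFAT core at 61. Txk (154 bases) and Ptpn22 (9 bases) held the ETS core once. Grap2 held the E-box once, at 136 bases, and the other 5 did not. None of the 6 held the AP-1, TATA or cyclic AMP motif as spelled. A match is only a match of letters, with no reading on binding, and the genes that rose and those that fell both held the ETS core.

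Levels of different genes were compared per kilobase of merged exons in the GENCODE annotation. Ptprc was highest at a mean of 2508 normalized counts per kilobase over the 6 libraries, and Cd3d (2352), Lck (2107), Sla (1998) and Cd3g (1754) came next. Neighbours in this order overlapped between their libraries in both strains, except Lck above Sla in NOD (2437 to 2478 against 2051 to 2193 per kilobase). Cd3e was far lower than the other CD3 genes, at 470 ± 68.3 (SD) per kilobase in NOD and 258 to 296 over the B6 libraries, against 1993 ± 95.3 and 1301 to 1724 for Cd3g, on merged exon lengths of 4.08 and 3.27 kb. Merged exons hold every annotated isoform, so a gene with long rare exons is set too low on this scale. Ubash3b per kilobase was 166 ± 26.0 in NOD and 478 ± 27.2 in B6, above Ubash3a at 104 ± 16.0 and 221 ± 13.4. The lowest level was that of Tec, at 55.5 per kilobase, below the median of tested genes at the 45.7th percentile. Tespa1 (59.9), Nfatc2 (62.8), Themis (73.3) and Sos1 (84.9) were next above it.

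**Figure D4:**
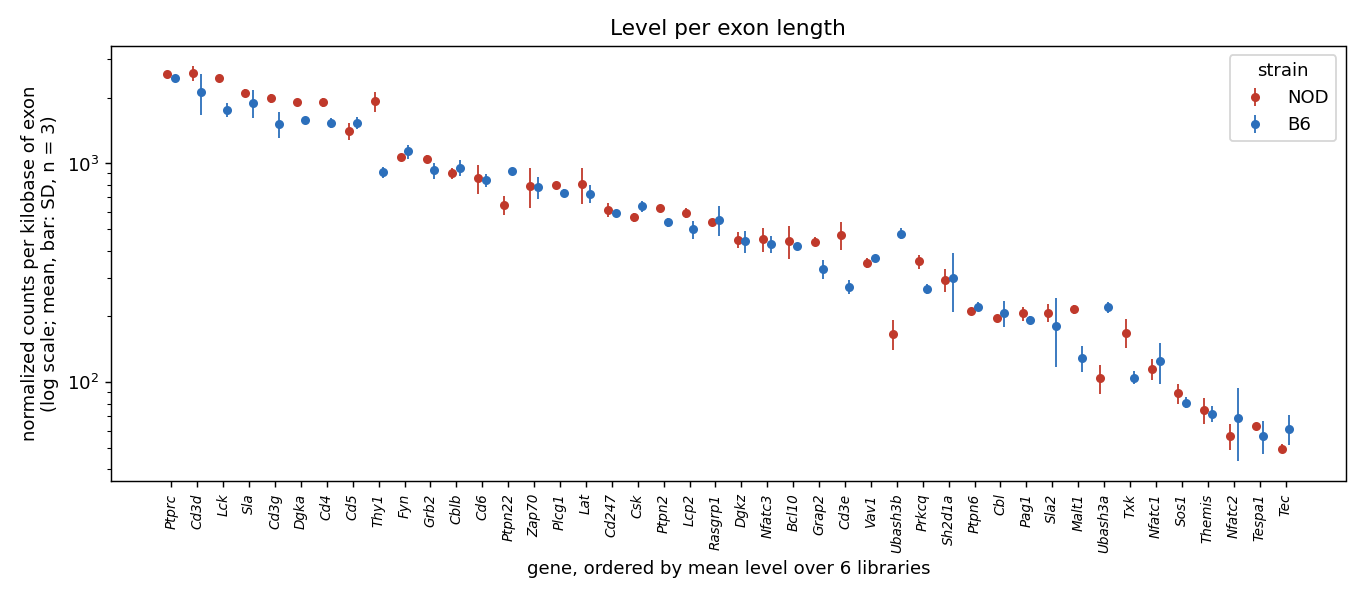
Normalized counts per kilobase of merged exon (log axis; mean with SD bar, n = 3) of the 44 genes in NOD (red) and B6 (blue), ordered by their mean over 6 libraries. Levels run from Ptprc (2508) to Tec (55.5), and the widest gaps between strains are at Ubash3b, Ubash3a and Thy1.

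In the annotation, 40 other tested genes overlap the 44 genes on either strand. They are split below by the call of the host gene, whose reads they may share. Over all tested genes, 4.59% were called higher and 5.30% lower. Of the 7 that overlap genes called higher, 3 were called higher and 0 lower. Gm48720 lies within Cd3e on its strand and shares no exon with it, and stood at 209, 229 and 211 normalized counts in NOD and 109, 75 and 93 in B6 (a difference of 1.23 on the log2 scale, limma adjusted p = 0.0016). Gm48719, antisense to Cd3e with 135 shared exon bases, differed by 0.96 (adjusted p = 0.025), and Gm49553 within Grap2 by 0.86 (adjusted p = 0.028). Of the 5 that overlap genes called lower, 2 were called lower and 0 higher. Gm48611 within Ubash3b stood at 57, 57 and 60 against 172, 281 and 136 (-1.68, adjusted p = 0.0016), and Gm43065 within Ptpn22 at 93, 88 and 122 against 215, 182 and 161 (-0.88, adjusted p = 0.018). Of the 28 that overlap genes not called, 1 was called higher and 1 lower. These are Gm37469 in Cd247 (0.64, adjusted p = 0.0497) and Tg, which overlaps Sla on the opposite strand (-0.96, adjusted p = 0.00048). The overlapping genes were named after their values were seen. The sources used here do not say whether counting used strand, so reads of host and overlapping genes cannot be told apart with certainty. On opposite strands this touches most the pairs with long shared exons, Cd247 with Pou2f1 (2136 bases) and Sh2d1a with Tenm1 (1465 bases). Gm48720, Gm49553, Gm48611 and Gm43065 lie within their hosts on the host's strand and share no exon. Unspliced host reads in a total RNA library could be counted for them under either strand setting, which was not tested.

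Neighbours of the other called genes were counted within 1 Mb of their starts, beside 4.59% of all tested genes called higher and 5.30% called lower. Of the tested genes there, 1 of 35 was called near Lck, 1 of 24 near Txk, 0 of 13 near Prkcq, and 1 of 6, lower, near Malt1. Near Thy1 9 of 53 were called, all higher, and 6 of them are also among those near Cd3e or are Cd3e itself. Near Grap2 1 of 36 was called higher and 4 lower, and near Ptpn22 4 of 51 were called, all lower. Near Ubash3b 3 of 12 were called, all lower, and 1 of them is Gm48611 inside it. Near Ubash3a 5 of 23 were called, 3 higher and 2 lower, on a chromosome where 13.1% of 808 tested genes were called.

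In the authors' deposited table, 10 of the 44 genes were higher and 3 lower at their adjusted p below 0.05, which is 22.7% and 6.82%. Over all 21988 genes with an adjusted p in the authors' deposited table, the shares were 4.68% and 5.06%. The 10 genes called here were all called in the same direction in the authors' deposited table. The authors' deposited table also called Cd3g (log2 fold change 0.39, adjusted p = 0.0093), Cd4 (0.31, adjusted p = 0.015) and Dgka (0.26, adjusted p = 0.0036) higher. The log2 fold changes of the authors' deposited table differed from the limma values by at most 0.054 for any of the 44. The mean that the authors' deposited table gives lies within 1% of the mean of these 6 libraries for only 4.04% of genes above 100 normalized counts. What else entered it is not stated.

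Other genes of the pathway were read from lists. Of 41 tested genes of further receptor signalling, 3 were called higher and 1 lower. Sit1, a transmembrane adaptor, was higher in NOD, at 704 ± 132 (SD) against 411 ± 56.2 normalized counts, by 0.77 ± 0.16 on the log2 scale (limma adjusted p = 0.011). So was Skap1, an adaptor for integrin activation, at 2722 ± 193 against 2055 ± 59.2 (0.40 ± 0.10, adjusted p = 0.025). Cd8a stood at 124, 35 and 100 against 10, 17 and 18 (adjusted p = 0.0075), low values in cells sorted as CD8-. Gab2, a scaffold adaptor, stood at 8, 14 and 9 against 59, 74 and 56 (-2.52 ± 0.35, adjusted p = 0.00058), also at a low level. In NOD only library 10 reached the filter's 10 normalized counts, so Gab2 passed the filter through the B6 libraries. Cd28, which encodes a costimulatory receptor and was chosen after its values were seen, was not called (0.35 ± 0.11, adjusted p = 0.083). Without NOD library 18 or B6 library 4 the list held 1 higher gene in place of 3, and without NOD library 10 it held 2 lower genes. Skap1 was not called in any of the 6 leave-one-out fits (adjusted p 0.052 to 0.099), Cd8a not without NOD library 18 (0.051) and Sit1 not without B6 library 4 (0.063).

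Calcium and NFAT control held 1 higher and 1 lower gene among 23 tested. Itpr2, an inositol trisphosphate receptor that releases calcium, was higher in NOD, at 6792 ± 276 (SD) against 4218 ± 717 normalized counts, by 0.70 ± 0.13 on the log2 scale (limma adjusted p = 0.0042). Cabin1, an inhibitor of calcineurin, was lower, at 1304 ± 231 against 1831 ± 88.3 (-0.51 ± 0.14, adjusted p = 0.039), a call lost when NOD library 18 or any B6 library was left out, and with a filter of 1 normalized count (adjusted p = 0.052). Of 26 RAS and MAP kinase genes, 2 were called higher and 0 lower, with 9 at an unadjusted p below 0.05 in either direction in limma, against 7 of 41 and 6 of 23 for the other lists and 3340 of all 16442 tested genes. Spry1, a feedback inhibitor, rose by 0.58 ± 0.14 (adjusted p = 0.022) and Mapk9, which encodes JNK2, by 0.46 ± 0.12 (adjusted p = 0.026). Leaving out NOD library 18 or B6 library 12 left 0 higher genes in it, and leaving out B6 library 4 or B6 library 20 left 1. Without NOD library 10 it held 3 lower genes. Beside the 4.59% and 5.30% of all tested genes called higher and lower, these are counts of 1 to 3 genes per list. Without a variance trend Gab2 (adjusted p = 0.0019) and Cd8a (0.0496) were still called, and Itpr2 (0.059), Sit1 (0.072), Spry1 (0.096), Skap1 (0.12), Mapk9 (0.13) and Cabin1 (0.17) were not. The medians of the 3 lists, 0.04, -0.02 and 0.04, lay near that of all tested genes.

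**Figure D5:**
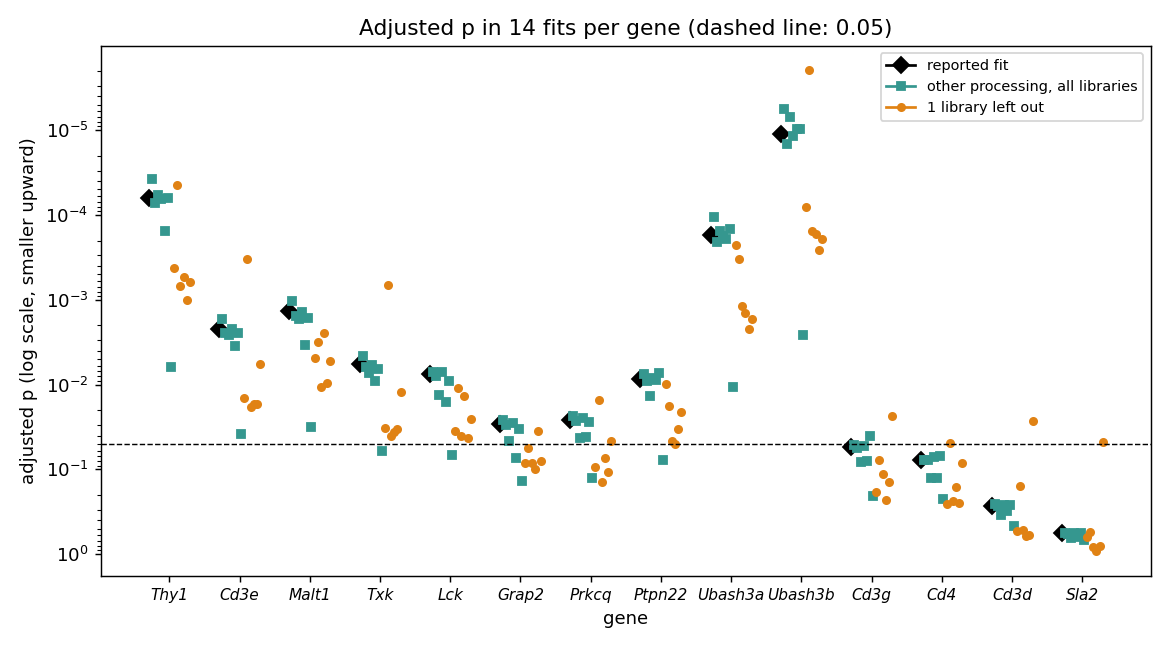
Adjusted p (log axis, smaller upward) of the 10 called genes and of Cd3g, Cd4, Cd3d and Sla2 in 14 limma fits: the reported fit (black), 7 other ways of processing all libraries (green) and 6 fits without 1 library (orange). Thy1, Cd3e, Malt1, Ubash3a and Ubash3b stay above the dashed line at 0.05 in all 14 fits, while Grap2 and Prkcq cross it in several fits and Lck, Txk and Ptpn22 in the fit without a variance trend.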

How the data were processed

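The 44 genes and all lists were chosen with earlier results of these data known. Trimmomatic, STAR and DESeq2 on mm10 are named by the authors, per the submitters' processing notes. Versions, the counter and its strand setting: not given in the sources used here. RNA came from a total RNA library kit, per the labels' protocols. The deposited sample columns are scores: normalized counts per the file headers, here taken as reads over a library's size factor, rounded to whole numbers. The authors' log2 fold changes and p-values are deposited beside them. Columns were matched to strain by name, and no sample column was left unused.

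A gene entered the fit if 3 libraries (2 with a library left out) held 10 normalized counts or more. limma 3.58.1 in R 4.3.3 fitted strain alone to log2(value + 1) with a variance trend, and two-sided p-values were adjusted over 16442 genes by Benjamini-Hochberg. Fits and the depth estimate were tested on simulated data. Replicate pairs differed by more than sampling noise (chi-square per gene 14.7 to 109). GENCODE M21 matched 99.1% of tested symbols and all 44 genes; the RefSeq promoter table held 34 of them. Protein sequences, planned, were not used here. Named are all 44 genes and, per pathway or marker list, up to 4 called genes in each direction by size of change; others were chosen after their values were seen. Alternatives were other pseudocounts (10, 0.5), filter, scalings, no variance trend, and each library left out.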

Additional observations from a re-analysis of the deposited data

How the results depend on the processing

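The count of genes called higher stayed within 1.5 times the reported 7 in every fit but the one without a variance trend, where limma called 3 (Cd3e, Thy1 and Malt1). There Lck (adjusted p = 0.068), Txk (0.061), Ptpn22 (0.077), Prkcq (0.13) and Grap2 (0.14) lost their calls, and 528 higher and 638 lower genes were called over all genes, against 755 and 871. Over the fits with a library left out, 5 to 9 were called higher, and 3 were called lower in each. Rescaling to an equal total cost Grap2 its call (adjusted p = 0.073), and quantile normalization added Cd3g (0.041). No scaling moved the median of all genes by over 0.1. Genes near 0 changed sign without a call. With an equal total, log2 fold changes were -0.023 for Cd6, -0.034 for Zap70, -0.031 for Sh2d1a and -0.015 for Dgkz, and with quantile normalization -0.020 for Sh2d1a. With a library left out, they ranged from -0.0085 to 0.10 for Cd247, -0.058 to 0.15 for Cd6, -0.16 to 0.11 for Zap70, -0.023 to 0.23 for Lat, -0.074 to 0.15 for Bcl10, -0.16 to 0.052 for Rasgrp1, -0.12 to 0.24 for Sh2d1a, -0.053 to 0.14 for Themis, -0.072 to 0.10 for Dgkz, -0.29 to 0.023 for Nfatc1, -0.44 to 0.052 for Nfatc2 and -0.019 to 0.16 for Nfatc3. The cause was not tested. No paired analysis was possible because the columns carry library numbers that are not the replicate numbers of the labels. With 3 libraries a strain, a difference that misses the threshold is not shown to be absent.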
